A study of Caenorhabditis elegans with 2 samples.

Results

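The strongest ZIM-3 chromatin regions that lie away from gene starts and away from the classical small RNA genes form a set of 293 regions. They were selected on the authors' signal: the 3.02% of highest signal were taken from the 30000 regions of the list called on the pooled replicates, called the top set here, and a region of it was kept when its summit was more than 1 kb from every protein-coding gene start and more than 500 bp from every tRNA, snoRNA or snRNA gene. Of the other regions of the top set, 302 lay near such a small RNA gene and 311 lay within 1 kb of a gene start with no small RNA gene nearby. Over the whole pooled list 18363 regions pass the same position filter, so the 293 are 1.6% of them, and the remaining 18070, of lower rank, are the regions they are set against here. The authors label the pooled list as peaks and background, so these lower-ranked regions can include background. Both replicates had a summit within 200 bp for 47.3% of them, against 99.3% of the 293. The 293 were chosen on signal pooled over both replicates, so this difference was set at least in part by the choice. The regions of the top set are exactly those of the authors' list thresholded by the irreproducible discovery rate, which scores how well replicates rank the same regions. Being on that list did not mean like ranks in the 2 replicates' own lists, as given below.

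The data come from chromatin immunoprecipitation and sequencing (ChIP-seq) of whole Caenorhabditis elegans of strain OP581, genotype unc-119(tm4063) III with the transgene wgIs581, which expresses ZIM-3 fused at its C terminus to GFP and FLAG. Chromatin from young adults of mixed sex, 54.5 h after synchronization of starved L1 larvae, was sheared by sonication and precipitated through the GFP tag in 2 biological replicates. No untagged strain, input library or other stage was analysed here, and the whole animal was used, so signal cannot be assigned to a tissue. ZIM-3 belongs to the HIM-8 and ZIM proteins, C2H2 zinc-finger proteins that bind short repeats at the pairing centres near chromosome ends in meiotic germ cells, where they help homologous chromosomes find each other and synapse. Genes of tRNAs carry internal A and B boxes, at which the machinery of RNA polymerase III assembles. At the end of a protein-coding gene the transcript is cleaved and polyadenylated.

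The 2 highest signals among the members came from intronic repeats in the first megabase of chromosome IV. A 12-mer present in 10 members within 50 bp of the summit, more than any other apart from ties (3 12-mers share that count), is printed in capitals in the windows below, which cover 101 bp around 3 of these summits on the forward strand of ce11. These and the following genomic sequences were read from RefSeq's copy of the assembly, WBcel235. In the tut-1 and grld-1 windows it appears as its reverse complement.
csn-3 intron, chrIV:195734-195834: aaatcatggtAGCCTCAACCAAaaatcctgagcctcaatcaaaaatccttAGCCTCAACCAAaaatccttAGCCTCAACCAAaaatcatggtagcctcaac
tut-1 intron, chrIV:119929-120029: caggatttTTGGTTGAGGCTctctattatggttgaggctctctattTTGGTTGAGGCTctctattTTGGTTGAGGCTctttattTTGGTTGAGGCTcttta
grld-1 intron, chrIV:123408-123508: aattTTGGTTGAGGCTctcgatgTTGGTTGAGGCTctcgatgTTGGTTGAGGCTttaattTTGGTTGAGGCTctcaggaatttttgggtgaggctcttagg

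A few members of high rank carry a tRNA-like arrangement although no annotated tRNA gene lies within 500 bp. The windows below were oriented so that the A box comes before the B box, with 15 bp on either side, and both boxes are in capitals. The B box was searched as GTTCGANNC or GTTCAANNC and the A box by a fixed pattern close to its usual consensus. Both were searched on both strands, within 100 bp of the summit, with box starts 25 to 110 bp apart. Other forms of the A box were not searched, and the pattern was chosen after sequences were seen.
srt-52 intron, chrV:53468-53551, forward strand: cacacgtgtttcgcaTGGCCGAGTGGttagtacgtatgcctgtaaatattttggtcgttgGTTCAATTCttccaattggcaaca
C14C11.7 intergenic, chrV:5667461-5667544, reverse strand: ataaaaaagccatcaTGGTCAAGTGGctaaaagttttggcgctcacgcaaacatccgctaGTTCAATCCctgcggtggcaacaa
pat-4 intergenic, chrIII:89292-89374, reverse strand: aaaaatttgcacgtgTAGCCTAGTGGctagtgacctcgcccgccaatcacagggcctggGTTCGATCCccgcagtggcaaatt
F09E5.7 intergenic, chrII:5353810-5353893, reverse strand: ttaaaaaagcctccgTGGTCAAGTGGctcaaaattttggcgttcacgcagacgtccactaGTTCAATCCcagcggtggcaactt
unc-104 intron, chrII:7001619-7001701, forward strand: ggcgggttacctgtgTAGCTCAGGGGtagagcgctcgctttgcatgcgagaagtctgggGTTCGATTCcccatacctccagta
lips-10 intron, chrII:8441629-8441712, reverse strand: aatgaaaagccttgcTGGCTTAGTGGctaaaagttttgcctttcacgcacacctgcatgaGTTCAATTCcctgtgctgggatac

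The miRNA genes near members include most of the mir-51 family, whose mature strands share a seed. The seed, bases 2 to 8, is in capitals in the mature sequences below, which were read from the RefSeq annotation of the same assembly.
mir-51-5p, chromosome IV: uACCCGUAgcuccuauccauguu
mir-52-5p, chromosome IV: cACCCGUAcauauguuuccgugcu
mir-54-3p, chromosome X: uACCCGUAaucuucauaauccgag
mir-55-3p, chromosome X: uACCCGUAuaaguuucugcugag
mir-56-3p, chromosome X: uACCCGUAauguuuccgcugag
mir-80-3p, chromosome III: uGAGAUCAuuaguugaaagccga
The first 5 share the seed ACCCGUA, which 6 of the 458 annotated mature miRNAs carry.

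Exon, intron and intergenic summits made up similar parts of the 293 members, with intergenic summits the most frequent. In the same selection from replicate 2's list alone, exon summits were slightly more frequent than intergenic ones. There were 113 intergenic members (38.6%, 95% interval 32.96 to 44.4%), 102 in exons of protein-coding genes (34.8%, 29.4 to 40.6%) and 78 in introns (26.6%, 21.6 to 32.1%). Among the 18070 lower-ranked regions that pass the same filter, 25.7% were intergenic, 44.1% exonic and 30.2% intronic. Seen from the other side, 2.38% of all intergenic regions that pass the filter reached the top set, against 1.41% of intronic and 1.26% of exonic ones. The intergenic share fell from 38.6% among the members to 27.5% in the next band of as many ranks and 24.3% at ranks 1813 to 5000, while the exon share was 34.8%, 44.3% and 47.2% over the same ranks. These shares describe regions that signal chose. No test was made, since regions of one pooled list are not replicates.

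**Figure D1:**
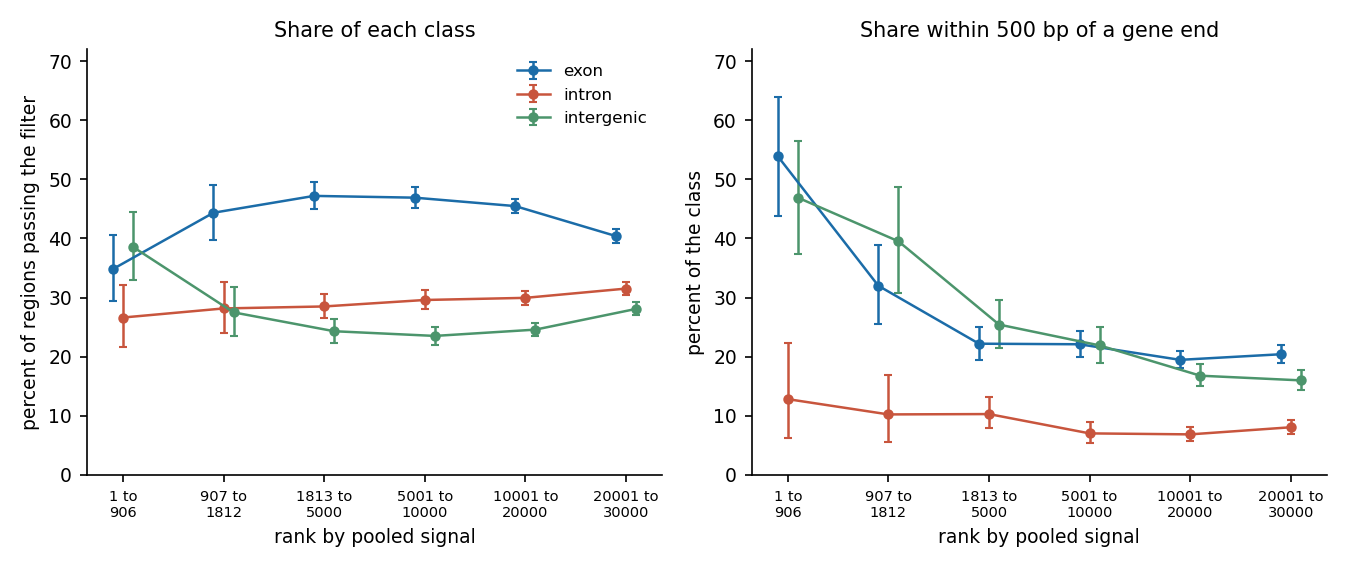
Share of exon, intron and intergenic summits (left) and share of each class within 500 bp of a protein-coding gene end (right), in percent, among regions that pass the position filter, by rank band of the pooled list; points are shares and bars are 95% Clopper-Pearson intervals. The intergenic share is 38.6% among the members and 24.3% at ranks 1813 to 5000, and the gene-end share of exon summits goes from 53.9% to 22.2% between the same bands.

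The classes overlapped almost wholly in signal, and the introns held the highest values. Pooled signal, in the authors' units, had a median of 170.2 in intergenic members (lowest 140.7, highest 347), 161 in introns (140.8 to 818) and 156 in exons (140.9 to 680.2). The upper quartile was 208 in introns, 201.3 in intergenic members and 176 in exons. The introns thus reached higher at the top, while the intergenic class had the highest median.

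**Figure D2:**
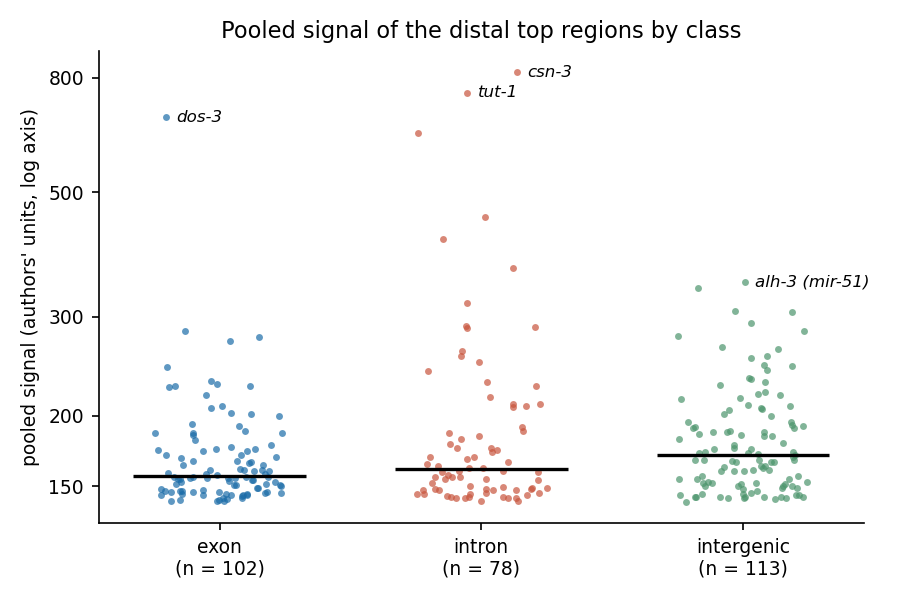
Pooled signal of each of the 293 members (log axis, authors' units) by class, with horizontal jitter and a black line at the median. The 3 classes share the range above the limit of 140.7, and csn-3 at 818 and tut-1 at 752 in introns and dos-3 at 680.2 in an exon stand above the rest of their classes.

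At the limit set by signal, the last members were an intergenic summit near srw-85, a chemoreceptor-type gene, at 140.709 and a ras-1 intron at 140.828, and the first regions left out were exons of nhr-66, a nuclear hormone receptor gene, at 140.609 and of dys-1, the dystrophin gene, at 140.568. At the limit set by distance, an hrpf-1 exon 1003 bp from a gene start was kept and a summit 987 bp from one, near Y69A2AR.31, was left out. A summit near F52G3.8, 538 bp from a small RNA gene, was kept, and one near T28B8.1, 483 bp from one, was not. Altogether 8 members lay within 1 kb of a small RNA gene, 112 within 2 kb of a gene start, and 55 over 5 kb from every gene start.

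The members were often close to gene ends, which the rule did not use. Of the 293, 118 (40.3%, 34.6 to 46.1%) had the summit within 500 bp of the annotated end of a protein-coding gene, against 16.4% of the lower-ranked regions. Of all regions that pass the filter and lie that close to a gene end, 3.84% were in the top set, against 1.6% of all that pass the filter. The share was 53.9% in exon members and 46.9% in intergenic ones, against 20.9% and 18.8% in their lower-ranked counterparts. In introns it was 12.8% (10 of 78) against 7.74%, with an interval of 6.32 to 22.3% that includes the lower value. Over rank bands the share of all filtered regions near an end was 40.3%, 27.9%, 19.6%, 17.6%, 15.03% and 15.3%, from the highest band to the lowest.

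More summits lay past the ends than before them, which the class and the position filter together fix in advance for intergenic summits near an end. An intergenic summit within 500 bp of an end and over 1 kb from every gene start can only lie past that end. Farther from the nearest end, it can also lie on the gene's side, beyond the gene's start. All 53 intergenic members within 500 bp of an end did so, as did all 870 such lower-ranked intergenic regions. Of the members, 82 (28.0%, 22.9 to 33.5%) had the summit less than 400 bp past the nearest gene end, against 7.32% of lower-ranked regions. Another 26 (8.87%, 5.88 to 12.7%) lay up to 400 bp before the end, against 5.45%. In exons, a summit can only lie past one gene's end by lying in an exon of its neighbour. Of the 55 exon members near an end, 31 (56.4%, 42.3 to 69.7%) were of that kind, against 565 of 1664 lower-ranked ones (34.0%). The other 24 lay before the end, and the interval includes an equal split. Of the intron members near an end, 6 lay past it and 4 before. Among intergenic members, 18 of 113 (15.9%) lay between converging genes, with an end of each within 1 kb, against 4.16% of lower-ranked intergenic regions.

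**Figure D3:**
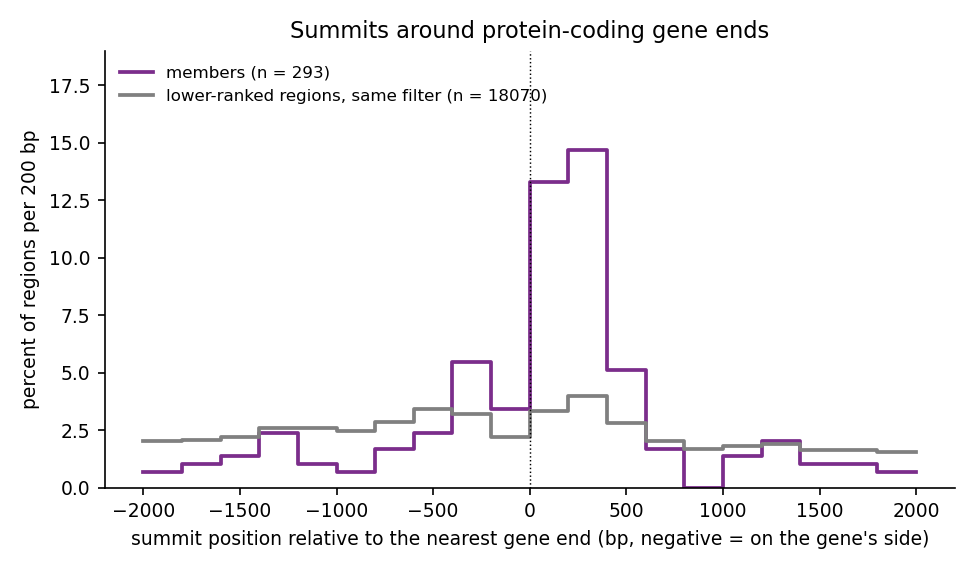
Position of summits relative to the nearest protein-coding gene end, in bp, with negative values on the gene's side, as percent of regions per 200 bp; the purple line is the 293 members and the grey line the 18070 lower-ranked regions that pass the same filter. The members peak at 14.7% in the bin from 200 to 400 bp past the end, where the lower-ranked regions hold 3.99%.

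Each replicate's own list, cut at the same number of regions and passed through the same filter, gave similar shares. In replicate 1, 41.7% of 300 such regions lay within 500 bp of a gene end, against 16.9% of its lower-ranked regions. In replicate 2 it was 37.4% of 326 against 15.2%. Among the rest of the top set, 44.4% of the 311 regions near gene starts also lay within 500 bp of a gene end, and 23.5% of the 302 near small RNA genes.

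Among intergenic members, several of the highest lay a short way past a gene end, some of them between converging genes. The pat-4 member, past the gene for integrin-linked kinase of muscle attachments, had a pooled signal of 307 and ranks of 58 in replicate 1 and 256 in replicate 2, with its summit 101 bp past the gene end. The atp-1 member, at the gene for the ATP synthase alpha subunit, had a signal of 265, ranks of 85 and 334 and a distance of 140 bp. The rps-6 member, at a gene of the small ribosomal subunit, had a signal of 256, ranks of 157 and 127 and a distance of 190 bp. All 3 were thus in the top sets of both replicates, cut at the same number of regions. For pat-4, atp-1 and F21D12.3 the end of a converging gene also lay within 1 kb. Further members lay 154 bp past F21D12.3 (signal 263), 163 bp past F09E5.7 (284) and 572 bp past F58D12.1 (278). The pat-4 and F09E5.7 members are also among those with the A and B boxes printed above.

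Below are 7 more intergenic members past gene ends, picked after their values were seen and standing for no gene group. Past mdl-1 and mxl-3, 2 bHLH genes of the Max network, the signals were 254 at 205 bp and 247 at 312 bp. Past xbp-1, the bZIP factor of the unfolded protein response, it was 215 at 250 bp, and past cgh-1, a DEAD-box helicase of germ granules, 215 at 257 bp. The member past cdc-48.1, an AAA ATPase, had 191 at 146 bp, that past mdh-2, a malate dehydrogenase, 187 at 215 bp, and that past gdh-1, glutamate dehydrogenase, 175 at 207 bp. Replicate 2 ranked 3 of these 7 above its rank 150: mdl-1 at 49, xbp-1 at 87 and cgh-1 at 132.

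The remaining high intergenic members lay farther from gene ends or near non-coding genes. The highest of the class, at 347, lay 78 bp from mir-51 and 320 bp past alh-3, with ranks of 83 and 18. A summit near W02H3.3 on chromosome X, 2763 bp from the nearest gene end, had 338 and ranks of 48 and 94. The member near C30E1.4, at 292 with ranks of 136 and 47, lay inside the long non-coding gene C30E1.9, which spans 14770 bp of chromosome X and holds 5 members. The member near C14C11.7, at 307 with ranks of 69 and 116, is one of those with A and B boxes. All 10 of the highest intergenic members were in the top sets of both replicates.

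Exon members were coding for the most part, but more often in 3′ untranslated exons than lower-ranked exon regions. Of the 102, 75 (73.5%) lay in coding sequence, 20 (19.6%, 12.4 to 28.6%) in 3′ untranslated and 6 in 5′ untranslated sequence, and 1 in none of these. Among lower-ranked exon regions 90.8% lay in coding and 7.18% in 3′ untranslated sequence. Of the 10 highest exon members 8 lay within 500 bp of a gene end.

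The single exon member far above its class was in dos-3, a gene of the DOS-motif Notch ligand type, on chromosome III. Its pooled signal was 680.2, and it ranked 4 in both replicates. The summit lay in coding sequence of dos-3 and 200 bp past the end of the neighbouring bZIP gene zip-2. The next were in Y43F8B.3, at 283, and in W06H8.6, at 276, and these ranked 138 and 101, and 109 and 136, in replicates 1 and 2. After dos-3, each exon member thus lay below the 10 highest intron members.

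Several further exon members of high signal lay at the meeting point of neighbouring genes. The zig-11 member, in a gene for an immunoglobulin-domain protein, had a signal of 245 and lay 183 bp past the end of cct-7, a chaperonin subunit. The clec-264 member, in a C-type lectin gene, had 231 and lay 278 bp past the end of fkb-6, an FK506-binding protein. The best-18 member, in a bestrophin channel gene, had 228 and lay 142 bp past the end of cts-1, citrate synthase. The first and second ranked similarly in the 2 replicates, 220 and 110, and 240 and 161, while best-18 ranked 122 in replicate 1 and 4105 in replicate 2.

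In the own gene's last stretch lay nra-1, a copine, at 272 with the summit 34 bp before the gene end, and tir-1, the SARM1 orthologue of innate immunity and axon degeneration, at 226 with the summit 82 bp before it. The mak-1 member, in a MAPK-activated kinase gene, had 226 and was 785 bp from the nearest end. In Y43F8B.2 the higher of 2 exon members had 225, 317 bp past the end of Y43F8B.3.

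Of the 10 highest intron members 7 lay in repeats, and the others were at the RNase P locus, at a tRNA-like site and in tent-5, at none of these. The csn-3 intron, in a gene for a COP9 signalosome subunit, had the highest signal of the pooled list at 818 and ranked first in both replicates. The tut-1 intron, in a gene for a tRNA thiolation enzyme, had 752 and ranks of 2 and 6. Their signals in the replicates' own lists, whose scales differ, were 611 and 239 for csn-3 and 591 and 166 for tut-1. Y38C1AA.1 followed with 452.6 and ranks of 13 and 30, and ints-13, an Integrator subunit gene, with 414 and ranks of 23 and 43. All 4 lie in the first megabase of chromosome IV and hold the 12-mer printed above.

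That stretch held 11 members, of which 10 were intronic and held the 12-mer within 50 bp of the summit: 3 in csn-3, 3 in ints-13, 2 in grld-1 and 1 each in tut-1 and Y38C1AA.1. Their signals had a lowest value of 144, a median of 275 and a highest of 818. The 12-mer was found near 7 of the 18070 lower-ranked regions (0.0387%) and 3.41% of the members. It was picked as the one most frequent among members, so this difference was set by the choice. The commonest 12-mer of each region, within 188 bp, was present in 8 to 14 copies at these 10 summits. Copies were counted at every start position, so they can overlap. Not all of them ranked alike: csn-3 ranked 1 and 1, the second csn-3 summit 152 and 223 and the third 324 and 1676, and the lowest of ints-13 ranked 621 and 8412. Reads from near-identical repeat copies cannot be placed with certainty, and how the authors handled such reads was not stated in the labels.

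Members with many copies of a 12-mer, not always the one printed above, were mostly intronic. A 12-mer in 8 or more copies was found in 15 of 78 intron members (19.2%), 3 of 113 intergenic (2.65%) and 0 of 102 exon members, against 1.83%, 1.86% and 0.163% of the lower-ranked regions of each class. Of the 18 such members, 10 lay in chromosome IV's first megabase, all of them intronic and at the repeat printed above. The other 8 lay elsewhere. The ppfr-1 intron, in a gene for a protein phosphatase 4 regulatory subunit, held 2 of them, with 89 and 79 overlapping copies. These 2 members had signals of 318 and 288 and ranks of 87 and 114 in replicate 1. Both matched the same region of replicate 2, at rank 35. The others had signals of 148 to 234 and were 2 mnk-1 introns, a Y54G2A.26 intron and intergenic summits near T28H10.2, sptf-3 and gst-11.

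**Figure D4:**
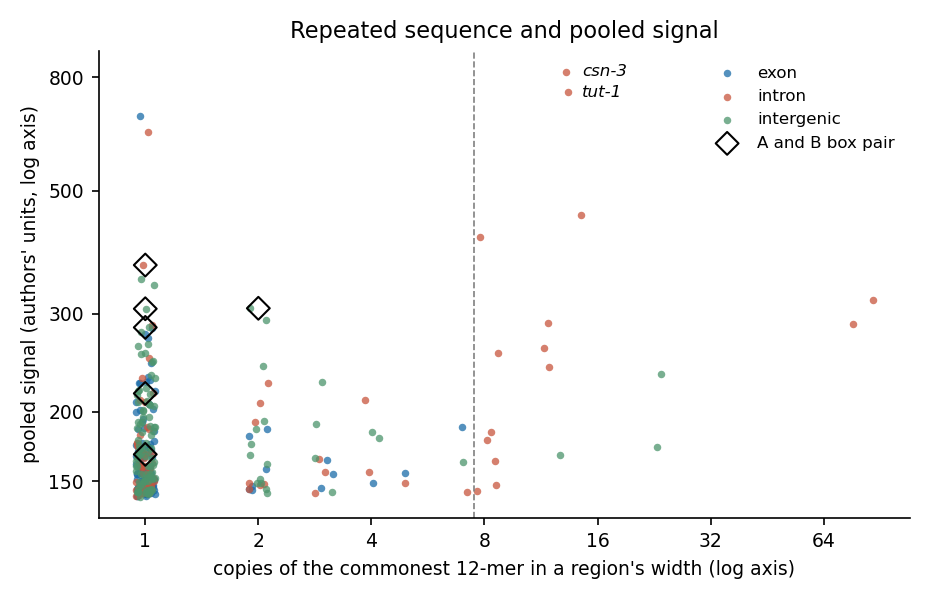
Pooled signal (log axis, authors' units) against copies of the commonest 12-mer within 188 bp of the summit (log axis, jittered) for the 293 members, coloured by class; open diamonds mark the 6 members with an A and B box pair and the dashed line separates those with 8 or more copies. Of the 18 members right of the line 15 are intronic, and csn-3 at 818 and tut-1 at 752 are the highest of all. Overlapping copies are counted.

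The A and B box pair printed for 6 members was rare among distal regions. It was found in 6 of 293 members (2.05%, 0.755 to 4.40%), 3 of them intronic and 3 intergenic, against 53 of 18070 lower-ranked regions (0.293%) and 1.18% of all 30000 regions. In the rest of the top set it was found at 50% of the 302 summits near small RNA genes and at 0.965% of those near gene starts. Of the 18 members among the 100 highest regions, 4 held the pair: srt-52 at 367, C14C11.7 and pat-4 at 307 each, and F09E5.7 at 284. The srt-52 intron, in a chemoreceptor gene, ranked 44 and 37 in the replicates. The unc-104 intron, in the kinesin-3 gene, had 216 with ranks of 239 and 431, and its summit lay inside C52E12.t1, which the RefSeq annotation gives as a tRNA pseudogene. The lips-10 intron, in a lipase gene, had 168 and ranked 407 and 4641.

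Another annotated tRNA pseudogene, C44C11.t2, lay 71 bp from the ras-1 summit at the limit of the set, at 140.8. Matches to the boxes describe these sequences only, and transcription of them was not measured.

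Non-coding genes of classes that the rule did not use, pseudogenes left out, were near 51 members (17.4%, 13.2 to 22.2%), against 11.1% of lower-ranked regions. Of all filtered regions within 500 bp of such a gene, 2.49% reached the top set. The share followed the class: 25.7% of intergenic, 17.9% of intron and 7.84% of exon members, against 19.3%, 12.9% and 5.01% of their lower-ranked counterparts. All 3 intervals for the members, 17.9 to 34.7%, 10.2 to 28.3% and 3.45 to 14.9%, include the lower-ranked value of the class.

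By biotype, genes annotated as ncRNA were near 43 members (14.7% against 8.59%) and miRNA genes near 6 (2.05% against 0.404%). For piRNA genes it was 5 (1.71% against 1.77%) and for pseudogenes, which are not in the count of 51, it was 10 (3.41% against 4.39%). Among intergenic regions, where pseudogenes are most frequent, they were near 8 members (7.08%, 3.11 to 13.5%), against 15.3% of lower-ranked regions. The 4 highest members near pseudogenes, over all classes, lay inside T26C11.3 (signal 245), C52E12.t1 (216), srw-78 (195) and W04B5.2 (190.2). Antisense RNA genes were near 2 members, a lincRNA gene near 1 and rRNA genes near 0.

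RNA polymerase III genes outside the 3 biotypes of the rule were among the ncRNA genes. The third-highest intron member, in ints-8 of the Integrator complex, had its summit 3 bp from rpr-1, the RNA of RNase P, with a signal of 638 and ranks of 7 and 2. The signal recognition particle RNA genes srpr-2.1 and srpr-1.1 were near a member each: the summit at 200.3, with ranks of 409 and 154, lay inside the first, and that at 174, with ranks of 492 and 811, lay 159 bp from the second, in an exon of pals-26. Apart from these polymerase III genes, the member near tts-1, a long non-coding RNA of aged and stressed animals, at 256 bp, had 178 and ranks of 267 and 11538. The 2 signal recognition particle genes and tts-1 were named after their values were seen.

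Several non-coding genes near members of high signal lay at loci already described. The antisense gene anr-20 spans both ppfr-1 summits, and the ncRNA gene F16A11.7 holds one of them and lies 19 bp from the other. F36H1.17, an ncRNA of 89 bp, holds the summit near mir-51. The ncRNA gene R03E9.10 holds the mdl-1 summit at 254. Elsewhere, the lincRNA linc-128 holds a summit near cmd-1, the calmodulin gene, at 233 with ranks of 224 and 149. The piRNA genes lay near summits in or near gln-3, tlp-1, nhr-105, zyg-11 and efn-2, with signals of 145 to 157.

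The 6 members near miRNA genes included the highest of the intergenic class. The mir-51 member had 347 and ranks of 83 and 18, and the mir-52 member, with the summit inside the hairpin gene, had 227 and ranks of 184 and 426. The member beside the cluster of mir-54, mir-55 and mir-56, in an F09A5.3 intron, lay 187 bp from mir-56, with a signal of 182 and ranks of 285 and 16407. Replicate 2 thus held the first 2 in its top set and ranked the third far below. The other 3 lay near mir-80 (165 bp, signal 160, ranks of 555 and 1193), mir-2214 (2 bp, 162, ranks of 502 and 2912) and mir-794 (315 bp, 167, ranks of 460 and 1988). Outside the top set of replicate 2 were thus 4 of the 6.

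Internal transcript starts were near a minority of members. A start of any protein-coding transcript lay within 500 bp of 29 members (9.90%, 6.73 to 13.9%), against 7.35% of lower-ranked regions. Introns held 17 of them (21.8%, 13.2 to 32.6%, against 11.2%), exons 11 and intergenic sequence 1. Among them were 3 ints-13 introns, 214 to 415 bp from such a start, and the highest tent-5 intron, 266 bp from one.

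More of the intergenic than of the exon members were in the top sets of both replicates, with intervals that overlap. Within 200 bp of the summit, replicate 1 had a region for all 293 members and replicate 2 for 291. In its own top set, cut at the same number of regions, replicate 1 held 82.3% of the members and replicate 2 57.3%. Both top sets held 135 (46.1%, 40.3 to 52.0%): 62 of 113 intergenic (54.9%, 45.2 to 64.2%), 36 of 78 intron (46.2%, 34.8 to 57.8%) and 37 of 102 exon members (36.3%, 27.0 to 46.4%). For comparison, 63.2% of the 302 regions near small RNA genes and 50.2% of the 311 near starts were in both. The pooled list holds the reads of both replicates, so these shares describe ranks and test nothing.

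**Figure D5:**
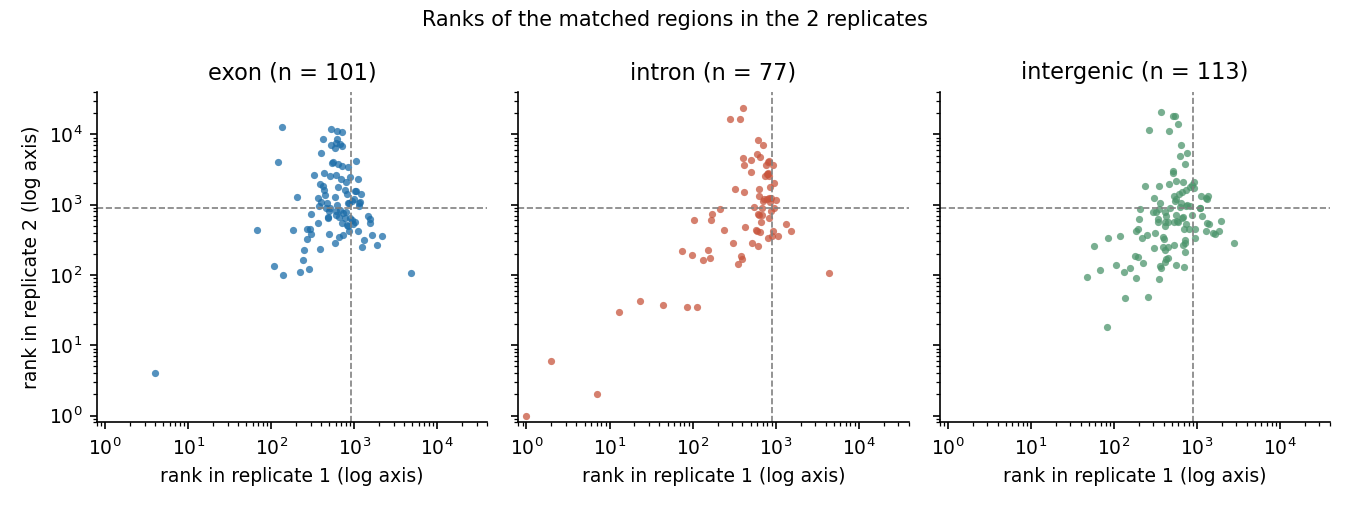
Rank of the matched region in replicate 1 (x axis) and replicate 2 (y axis), both on log axes, for exon (n = 101), intron (n = 77) and intergenic (n = 113) members; dashed lines mark the limit of the top set. Points spread farther upward than to the right, and 26 members rank beyond 5000 in replicate 2 and 0 in replicate 1.

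The median rank in replicate 1 was 525 for intergenic, 611 for intron and 612.5 for exon members. In replicate 2 it was 576, 744 and 965. Spearman's correlation of the ranks was 0.286 over the 291 members matched in both, 0.401 in introns (n = 77), 0.382 in intergenic members (n = 113) and 0.0112 in exons (n = 101). Members share libraries and were chosen on the joint signal, so these values describe the set only. Replicate 2 placed 26 members beyond rank 5000, 12 of them exonic, 6 intronic and 8 intergenic.

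By the difference of the ranks, the largest gaps toward replicate 1 were a vhp-1 intron, in a MAP kinase phosphatase gene, with ranks of 402 and 23878, an intergenic summit near F19H6.6 with 371 and 21048, and one near F26A3.4 with 511 and 18185. Toward replicate 2 they were a let-526 intron, in a SWI/SNF subunit gene, with 4350 and 106, a pks-1 exon, in a polyketide synthase gene, with 4763 and 107, and an intergenic summit near dct-16 with 2800 and 287. The exon of Y44A6C.1 and the nac-3 intron had no replicate 2 summit within 200 bp, with replicate 1 ranks of 284 and 462. The highest pooled signal of these was 186, at let-526. By the ratio of the ranks, which the log axes show, a pigq-1 exon of signal 218 stood farthest apart, with ranks of 134 and 12823.

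Closeness to a gene end did not go with lower replicate ranks. Of the 118 members within 500 bp of an end, 60 (50.8%) were in the top sets of both replicates, and of the 175 others 75 (42.9%). Median signal was 167 near ends (142 to 680.2) and 160 elsewhere (140.7 to 818). In exons the values were 41.8% of 55 near ends and 29.8% of 47 elsewhere.

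Host genes were long, and a few held several members. The 180 exon and intron members lay in 158 protein-coding genes of a median length of 5339 bp, against 4129 bp for genes that hold a lower-ranked region and 2027 bp for all 19973. A longer gene offers more sequence beyond 1 kb of its start. Intron members lay in a first intron in 34 cases and a later one in 44, and their introns had a median length of 1582.5 bp (81 to 19927 bp).

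There were 17 genes with 2 or more members, holding 41 members. The MAP kinase-interacting kinase gene mnk-1 on chromosome II held 4, 2 in exons and 2 in introns, with signals of 148 to 200 over 5683 bp. Those with 3 were csn-3 and ints-13, described above, tent-5, a terminal nucleotidyltransferase gene (158 to 287), vhp-1 (143 to 202) and ZK470.2 (141 to 208). With 2 there were ppfr-1, grld-1, W06H8.6, tir-1, Y43F8B.2, ncl-1, a TRIM-NHL gene that limits nucleolus size, lin-14, a heterochronic timing gene, unk-1, dnj-20, cbp-1, the CBP/p300 acetyltransferase, and ntl-3 of the CCR4-NOT complex. The pairs in ncl-1, lin-14, unk-1, dnj-20, cbp-1 and ntl-3 reached at most 187, in an ncl-1 exon, and in csn-3, ints-13 and grld-1 the multiple summits fell on the repeat.

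Gene families by symbol held few members. The Integrator complex had a member in 2 of 11 genes (ints-8 and ints-13), the COP9 signalosome in 1 of 6 (csn-3) and general transcription factors in 1 of 27 (taf-4), against 158 of 19973 (0.791%) over all protein-coding genes. All but taf-4 of these lie at the repeat or at rpr-1. Nuclear hormone receptors had 3 of 269 (nhr-19, nhr-88 and nhr-105), C-type lectins 1 of 240, chemoreceptors 3 of 1171 (srt-47, srt-52 and srx-41) and the twk, egl and unc genes 5 of 165 (twk-2, twk-13, unc-104, unc-108 and unc-132). Mediator with 20 genes, SET-domain with 31, cytosolic ribosome with 78, cuticle collagen with 156 and F-box with 322 genes had 0. The splicing pattern of 35 symbols took in sfxn-2 only, a sideroflexin by name. By gene ends, 172 of the 19973 genes (0.861%) had a member within 500 bp. Of the families without a member in the gene itself, that held for 2 of 78 cytosolic ribosome genes (rps-6 and rpl-3), 1 of 31 SET-domain genes (set-16), 1 of 156 cuticle collagens (col-140) and 0 of the Mediator and F-box genes. Of those with one, it held for sfxn-2, nhr-3, clec-264, twk-13 and the chemoreceptors srh-76, srt-47 and srx-41, and for 0 of the Integrator, COP9 and general transcription factor genes.

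Members were spread over the genome. Chromosome X held 57 (19.5%, against 19.2% of lower-ranked regions), II 51 (17.4% against 15.8%), III 50 (17.1% against 16.1%), V 50 (17.1% against 18.1%), IV 47 (16.04% against 14.5%) and I 38 (13.0% against 16.2%). Of the intergenic members 33 lay on X (29.2%, against 22.1% of lower-ranked intergenic regions) and 12 to 20 on each of the others. Joined at gaps of up to 10 kb, the members formed 243 groups, of which 206 were single and 12 had 3 or more (37 members), none longer than 7432 bp. The first megabase of IV held 3 of these 12, at tut-1 and grld-1, at csn-3 and at ints-13.

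Base composition differed from the lower-ranked regions in introns and between genes more than in exons. The median GC content within 50 bp of the summit was 46.0% in intron members against 40.6%, 45.5% in intergenic members against 41.6%, and 45.5% in exon members against 44.6%. Over rank bands the median of all filtered regions went from 45.5% in the highest to 40.6% in the lowest. Members near gene ends had a median of 42.6% and the others 48.5%.

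An 8-mer seen at several intergenic summits, GACGCAGA on either strand, was present within 100 bp of 18 members (6.14%, 3.68 to 9.54%), against 1.77% of lower-ranked regions and 1.88% of all 30000. Intergenic members held 12 (10.6%, 5.61 to 17.8%, against 2.85%), introns 5 (6.41% against 2.58%) and exons 1 (0.980% against 0.590%). The regions of the top set near gene starts held it at 6.11% and those near small RNA genes at 0.662%. Members with it included summits near nlp-40, a neuropeptide gene (signal 242, ranks of 197 and 182), mdh-2 (187, 412 and 504), atf-7, a bZIP gene (185, 299 and 779), and daf-16, the FOXO gene (172, 531 and 568). The 8-mer was picked after sequences at member summits were seen, so its higher share among members follows at least in part from the choice. The letters describe these windows only.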

How the data were processed

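Chromatin immunoprecipitation with sequencing was done on 2 biological replicates of a single group, per the labels. For each replicate, and for the pooled alignments of both, the authors deposited a list of 30000 regions on ce11, made with a control library that was not used here. The value used is the region signal as deposited by the authors. Its scale differed between lists, so it ranks regions within a list only. For the aligner, caller and threshold nothing is given in the sources used here. Read depth is unknown.

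Summits were set against the WBcel235 Ensembl release 115 annotation, the same assembly as ce11, and sequence was read from RefSeq's copy of it. Classes were assigned in the order exon, intron, intergenic over protein-coding genes. Replicate summits were matched within 200 bp. Intervals of shares are 95% Clopper-Pearson and reflect only how many regions were counted. The replicates share 1 group and regions are not replicates, so there are no p-values.

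The members and lists were chosen with earlier results of these data known. Named members are the 10 of highest signal in each class, those in genes with 2 or more, the 4 highest per other non-coding biotype, the 3 largest differences of replicate ranks in each direction, those without a replicate summit and the edges of the rule. Other members named were chosen after their values were seen, as were the 12-mer and the gene-end, box and 8-mer searches. Classes and distances were tested on simulated data. Python 3.11.15, pandas 2.3.3, numpy 2.4.6, scipy 1.17.1 and matplotlib 3.10.9 were used.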

Additional observations from a re-analysis of the deposited data

How the results depend on the processing

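Of the 129 values recomputed under alternatives, 103 stayed within the 95% interval of the main value (a factor of 1.5 for the count of members) and 26 moved. The count of 293 became 181 at over 2 kb from gene starts, 105 with the number of regions taken divided by 2 and 744 with it multiplied by 2. With the smaller and the larger number respectively, the exon share was 24.8% and 40.6%, the intergenic share 47.6% and 31.9%, the share in both replicates' top sets of the original size 83.8% and 18.5%, and the share near gene ends 46.7% and 32.8%. The medians of signal were then 204 and 131 in exons, 230 and 133 in introns, and 208 and 139 between genes. With distances taken from all transcript starts, the intron share was 19.6%, the intergenic share 46.8% and the share near transcript starts 0%. Classes over genes of any biotype gave 43.7% exon and 31.7% intergenic. Other non-coding genes were within 1 kb of 22.9%, transcript starts within 200 bp of 3.75%, and gene ends within 200 bp of 17.1% and within 1 kb of 48.5%. Gene ends, boxes within 50 bp and the set without the first megabase of IV were added after seeing the data. Selecting by the list of replicate 1 or 2 alone gave 300 and 326 regions, with no moved value. The most frequent class changed, however. By replicate 2 alone exon summits led with 38.7%, against 37.1% intergenic, and by replicate 1 alone intergenic summits led with 35.7%, against 34% exon. Medians of signal were not run on replicate lists, whose scale differs. With the smaller number the intron median exceeded the intergenic one, so the order of the classes by median signal depends on how many regions are taken, and the cause was not tested. The share of gene ends, ncRNA genes and intergenic summits stayed above that of lower-ranked regions under each of 8 alternatives for which both were computed.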
